A study of Rattus norvegicus with 6 samples.

Results

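Lhcgr encodes the receptor for luteinizing hormone, and it was represented on these arrays by a single probe, A_44_P466130, which is named by the RefSeq mRNA accession of the rat gene. The probe was found by matching every probe's accession, without its version, to the transcripts of Lhcgr in a RefSeq table of the rat assembly GRCr8. It is 1 of 39886 probes apart from controls, and Lhcgr is 1 of 38 genes to which a probe could be assigned by accession. The probe was printed as 10 spots on every array. Testis RNA of male Sprague-Dawley rats aged 11 weeks was labelled with the dye Cy3 and read on 6 Agilent arrays that mainly carry probes for PIWI-interacting RNAs (piRNAs), small RNAs of the germline. The 3 control rats were given corn oil, and the 3 DEHP rats were given di(2-ethylhexyl) phthalate, a plasticizer, at 1000 mg/kg/day by mouth for 28 days. Each array held RNA from the testis of a different rat. The comparison asks whether the signal of the receptor probe differed between the testes of the 2 groups. The series' design text lists the 2 treatments in the opposite order to the 2 groups, and the groups used here are those of the sample titles and treatment labels. The marks in the names of the deposited files are explained by no source used here, may not match the titles, and were not used. Were the 2 groups swapped, each direction below would be the opposite.

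Luteinizing hormone, released by the pituitary, reaches the testis through the blood and acts on Leydig cells, the steroid-producing cells between the seminiferous tubules. Its receptor is a G protein-coupled receptor that raises cyclic AMP. This starts the import of cholesterol into mitochondria and its conversion to testosterone. In the testis the receptor is known as a marker of Leydig cells, which make up a small share of the organ.

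The gene lies on the forward strand of chromosome 6 of GRCr8, from base 11415361 to base 11480834, and has 4 transcript accessions in the RefSeq table. Neither the sequence of the array probe nor its place in the transcript is given in the sources used here, so the exon it reads is not known. For context on how the gene is controlled, the 196 bases before the start of the gene record are shown, from RefSeq on GRCr8, chr6:11415165-11415360, forward strand, 5′ to 3′. Capitals mark matches to 2 searched motifs, the GC box GGGCGG, to which Sp1-family factors bind, and AGGTCA, the core motif of many nuclear receptors.
Lhcgr upstream: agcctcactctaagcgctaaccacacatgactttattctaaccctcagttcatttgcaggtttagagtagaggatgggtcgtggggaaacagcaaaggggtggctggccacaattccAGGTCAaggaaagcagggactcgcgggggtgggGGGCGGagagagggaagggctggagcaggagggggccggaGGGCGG
Both strands were searched. The window held 2 GC boxes, which begin 46 and 6 bases before the gene start, and 1 AGGTCA, which begins 79 bases before it. No motif overlapped another. Of the 33469 upstream windows of the same length in the RefSeq promoter table, 23.5% held a GC box and 10.9% held AGGTCA. The TATA box letters TATAAA and the cyclic AMP response element TGACGTCA were not in this window, and 9.80% and 0.890% of all windows held them. The window's GC content was 59.2%, against a median of 50.5% over all windows. The array data measure the transcript, and none of them bears on these bases.

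The arrays differed in overall brightness. The 75th percentile of the log2 signal over all probes was 5.74, 6.37 and 5.89 on control arrays 1, 2 and 3, and 6.14, 6.38 and 6.24 on DEHP arrays 1, 2 and 3. The file headers carry a scan identifier, taken here as that of a slide: control 1 shares it with the 3 DEHP arrays, and controls 2 and 3 share another. Of 23090 probes tested with limma, 2471 (10.7%) passed at an adjusted p below 0.05, and 1026 of them (4.44% of those tested) were higher in DEHP testis. The share of calls that were higher was 41.5%. It was 55.6% without centring, 68.6% with the percentile of only those probes detected on all 6 arrays, 31.3% with normexp background correction, 9.50% with median centring, 2.30% when arrays were centred on the mRNA probes and 0.371% when they were centred on the catalogue mRNA probes.

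The receptor probe was well above background in all 10 spots of all 6 arrays, and no spot was saturated or marked as an outlier. Processed signal is the brightness of a spot after the scanner program has subtracted background, in scanner units. On control 1 the 10 spots had a mean processed signal of 43.9 ± 3.75 (SD over spots), with a range of 39.3 to 52.0. On control 2 the mean was 47.4 ± 5.28 with a range of 39.7 to 54.4, and on control 3 it was 31.7 ± 3.43 with a range of 27.3 to 36.8. The control testes thus gave a dim but detected receptor signal, lowest on control 3.
On DEHP 1 the spots had a mean of 70.2 ± 3.75 and a range of 65.6 to 77.2. On DEHP 2 the mean was 84.0 ± 6.83 with a range of 74.3 to 94.5, and on DEHP 3 it was 59.1 ± 3.82 with a range of 50.7 to 64.4. All 3 DEHP arrays were brighter than all 3 control arrays in this uncentred signal. The array means were 9.72 to 20.5 times that array's median over negative control spots. Spots of an array come from the same RNA and are not replicates of a treatment.

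**Figure D1:**
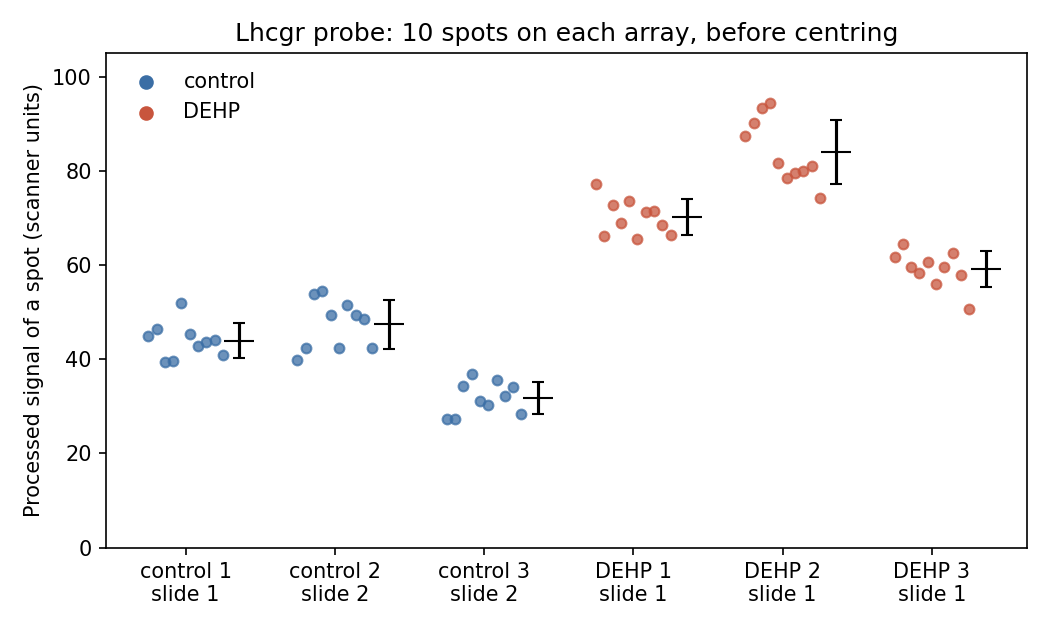
Processed signal (scanner units, linear axis from 0) of each of the 10 Lhcgr spots on each array, with control arrays in blue, DEHP arrays in red and the mean with the SD over spots in black beside them. The array means lie between 31.7 and 47.4 in controls and between 59.1 and 84.0 in DEHP testis.

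Before any centring, the receptor signal averaged 40.8 ± 8.17 in controls and 70.9 ± 12.4 in DEHP testis (SD over arrays of each array's geometric mean, n = 3). The ratio of the geometric means was 1.75. The difference of 0.80 on the log2 scale had a p of 0.1 in a two-sided exact permutation test, the smallest that 3 against 3 arrays allow. Limma on the uncentred values gave an adjusted p of 0.0874 (unadjusted p = 0.00663), which did not pass. In each of the 9 pairs of a DEHP with a control array the DEHP array was brighter, by 1.25- to 2.65-fold. The 3 uncentred DEHP values were above the 3 control values in 24.7% of all probes tested.
The uncentred difference was seen at every place where the probe was printed. These places read the same RNA samples, so they add no replicates of the treatment. At all 10 spot positions the 3 DEHP spots were above the 3 control spots of the same position, and the log2 difference at a position ran from 0.70 to 1.03. Over all spots together, 1 of 30 DEHP spots was below the brightest control spot, and 4 of 30 control spots were above the dimmest DEHP spot.

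Centring each array on its 75th percentile narrowed the gap and made the groups overlap. The percentile itself averaged 6.00 ± 0.33 on control arrays and 0.25 more, 6.25 ± 0.12, on DEHP arrays (SD, n = 3). Relative to it, the log2 level of the receptor probe was -0.28, -0.81 and -0.91 on controls 1, 2 and 3. It was -0.01, 0.01 and -0.35 on DEHP 1, 2 and 3. DEHP 3, the lowest of its group, was below control 1, the highest of the controls, and in the other 8 pairs the DEHP array was higher. In 20.6% of all probes tested the 3 centred DEHP values were above the 3 control values, and the receptor probe was not among them. The group means were -0.67 ± 0.34 and -0.12 ± 0.20 (SD, n = 3).
The change was 0.55 on the log2 scale with a standard error of 0.18, a 1.46-fold higher mean in DEHP testis with a 95% interval of 1.10 to 1.95. It did not pass the test across all probes (limma, adjusted p = 0.0784, unadjusted p = 0.0142). A higher value at an unadjusted p below 0.05 was seen in 17.3% of all probes tested, so the receptor probe was 1 of 3993 such probes. The single-value exact permutation test of the centred levels gave a p of 0.2 (two-sided, n = 3 per group).
In the authors' deposited table, whose columns share 1 distribution, Lhcgr had 5.79, 5.23 and 5.23 on controls 1, 2 and 3. In the authors' deposited table it had 6.04, 6.06 and 5.69 on DEHP 1, 2 and 3. The order of the arrays was alike there, with control 1 above DEHP 3 and the other 2 controls lowest. Limma on these values gave 0.51 (adjusted p = 0.103).

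**Figure D2:**
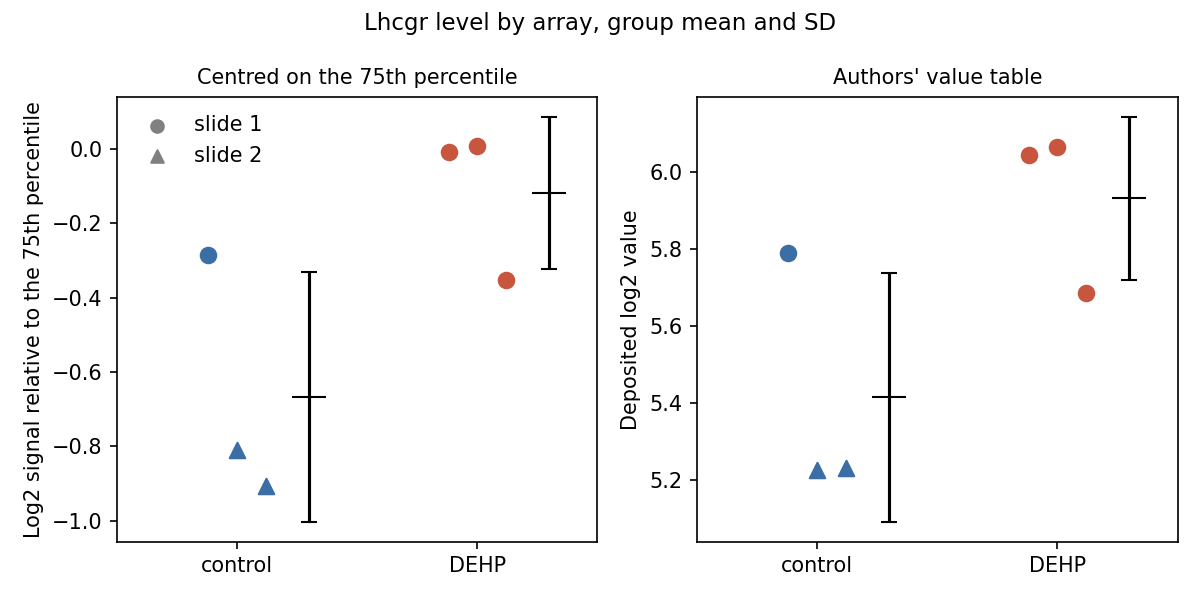
Lhcgr level on each array, as the log2 signal relative to the array's 75th percentile (left) and as the authors' deposited log2 value (right), with the group mean and SD (n = 3) in black and slides told apart by circles and triangles. The control on slide 1, at -0.28 on the left, lies among the DEHP arrays, and the controls on slide 2, at -0.81 and -0.91, lie below all of them.

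Control 1, the 1 control on the slide of the DEHP arrays, was 0.57 above the mean of controls 2 and 3 in centred log2 level, about as much as the group difference of 0.55. In the authors' deposited table that gap was 0.56, and before centring it was 0.18, where control 1, at 43.8, lay between control 3 and control 2. With 1 control on that slide, the slide and the animal cannot be told apart.
With the slide as a block the receptor change was 0.17 (standard error 0.20, limma adjusted p = 0.70), with a 95% interval of 0.819- to 1.54-fold. In that fit 0.0303% of all probes passed. The other slide holds controls only, so that this change is set by the arrays of slide 1 and is by construction the same among them alone, 1 control against 3 DEHP. Among them alone the adjusted p was 0.621 (limma, where the spread of the 1 control is taken to equal that of the DEHP arrays), and 8.82% of all probes passed. Without centring the 3 DEHP arrays of slide 1 were 1.60-fold above control 1, at 70.2 against 43.8, and did not overlap with it (exact permutation p = 0.25, the smallest that 1 against 3 allows).
Without control 1 the change was 0.74 and passed (limma, adjusted p = 0.0297), in a fit where 11.2% of all probes passed and where every control left lay on the other slide. There the slide and the treatment cannot be told apart. Without control 3 the change was 0.43 (adjusted p = 0.22). The part of the slide in the receptor difference was not tested beyond these values.

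Most other messenger RNA probes on the same arrays, 44 of 55, also had a change above 0. Among all probes tested but Lhcgr, 12755 of 23089 did. Besides Lhcgr, 55 mRNA probes were tested, 24 from the manufacturer's catalogue, as the receptor probe is, and 31 custom ones. Several custom probes read the same gene, so the 55 probes stand for fewer genes. The median change of the 55 probes was 0.43, 0.75 in the catalogue probes and 0.27 in the custom ones, against 0.05 over all other probes tested. Of the 24 other catalogue probes, 17 had a larger change than Lhcgr and 7 a smaller one, and 16 (66.7%) passed as higher in DEHP testis. Of the 31 custom probes, 7 had a larger change than Lhcgr and 24 a smaller one. Of all 55, 24 had a larger change and 31 a smaller one, and 24 (43.6%) passed as higher. Over all probes tested, 4.44% passed as higher. Among all other probes tested, 10.3% had a larger change than Lhcgr. Ldha had tested probes of both kinds, and they disagreed. Its catalogue probe had a change of 0.91 (limma, adjusted p = 0.0207). Its custom probes had changes of 0.31, 0.19 and -0.89, and the last passed as lower (limma, adjusted p = 0.0268).
The mean centred log2 level of the 24 catalogue probes was 1.47, 1.24 and 1.20 on controls 1, 2 and 3 and 2.06, 1.97 and 1.75 on DEHP 1, 2 and 3. As with Lhcgr, control 1 was the highest of the controls and DEHP 3 the lowest of its group, but here the groups did not overlap. In 19 of the 24 (79.2%) the 3 DEHP values were above the 3 control values, against 20.6% of all probes tested. Most probes had a single spot, as 39886 probes had 41317 spots on an array, while Lhcgr had 10. The part of spot number in such shares was not tested.
Centred on the 24 catalogue probes in place of the percentile, the receptor change was -0.08 (standard error 0.20, limma adjusted p = 0.753), a setting added after the data were seen. Centred on all 55 other mRNA probes it was 0.19 with a 95% interval of -0.18 to 0.56 (adjusted p = 0.422). On the latter scale the receptor probe had -1.37, -1.75 and -1.82 on controls 1, 2 and 3 and -1.44, -1.32 and -1.61 on DEHP 1, 2 and 3, so that the groups overlapped. A difference of Lhcgr from the change of the other mRNA probes was therefore not detectable with these arrays.

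**Figure D3:**
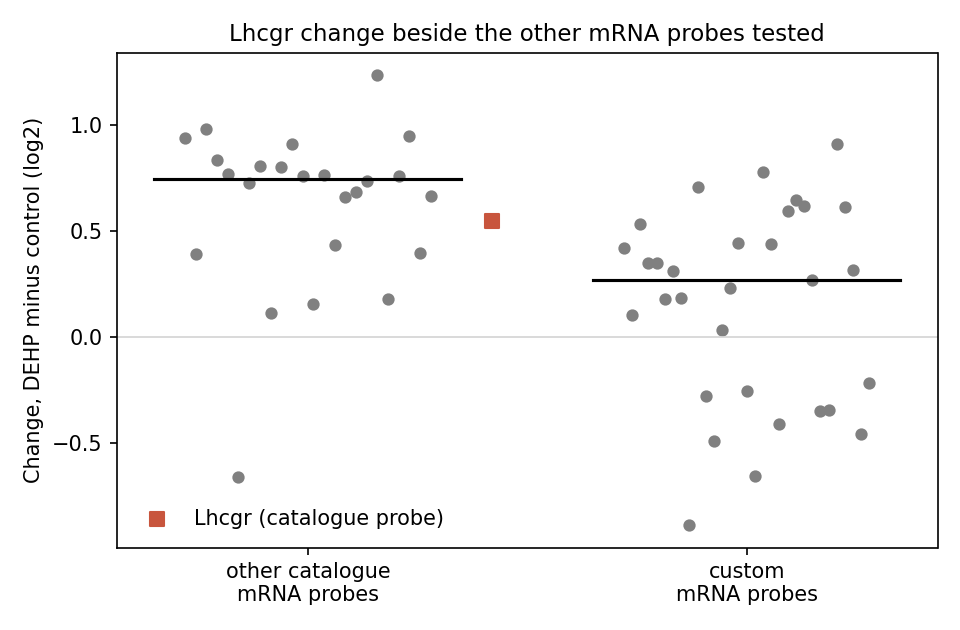
Log2 change, DEHP minus control, of each of the 24 other catalogue and the 31 custom mRNA probes (grey, 1 point per probe, spread sideways for view), with the median of each set as a black line and Lhcgr as a red square. Lhcgr, at 0.55, lies below the catalogue median of 0.75 and above the custom median of 0.27.

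The receptor change differed between scalings. It was 0.80 without centring, 0.68 with the percentile over probes detected on all 6 arrays, 0.51 after quantile normalization, 0.49 after cyclic loess and 0.34 with median centring. The median change of all probes went from 0.05 to 0.31, 0.19, 0.03, -0.0026 and -0.15 under these 5 scalings. Less that median, the receptor change was 0.49 under the setting reported, without centring, with cyclic loess and with the other 2 centrings, and 0.48 after quantile normalization. Another centring shifts all probes of an array alike, so there this difference is fixed by construction. With normexp background correction and an offset of 50 the receptor change was 0.26 after percentile centring. That offset is about as large as the receptor signal itself, which shrinks its ratios by construction. The receptor probe passed with the percentile over probes detected on all 6 arrays (limma, adjusted p = 0.0447), where 15.8% of all probes passed. It also passed with the replicate number as a block (adjusted p = 0.031), where 19.3% passed.

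**Figure D4:**
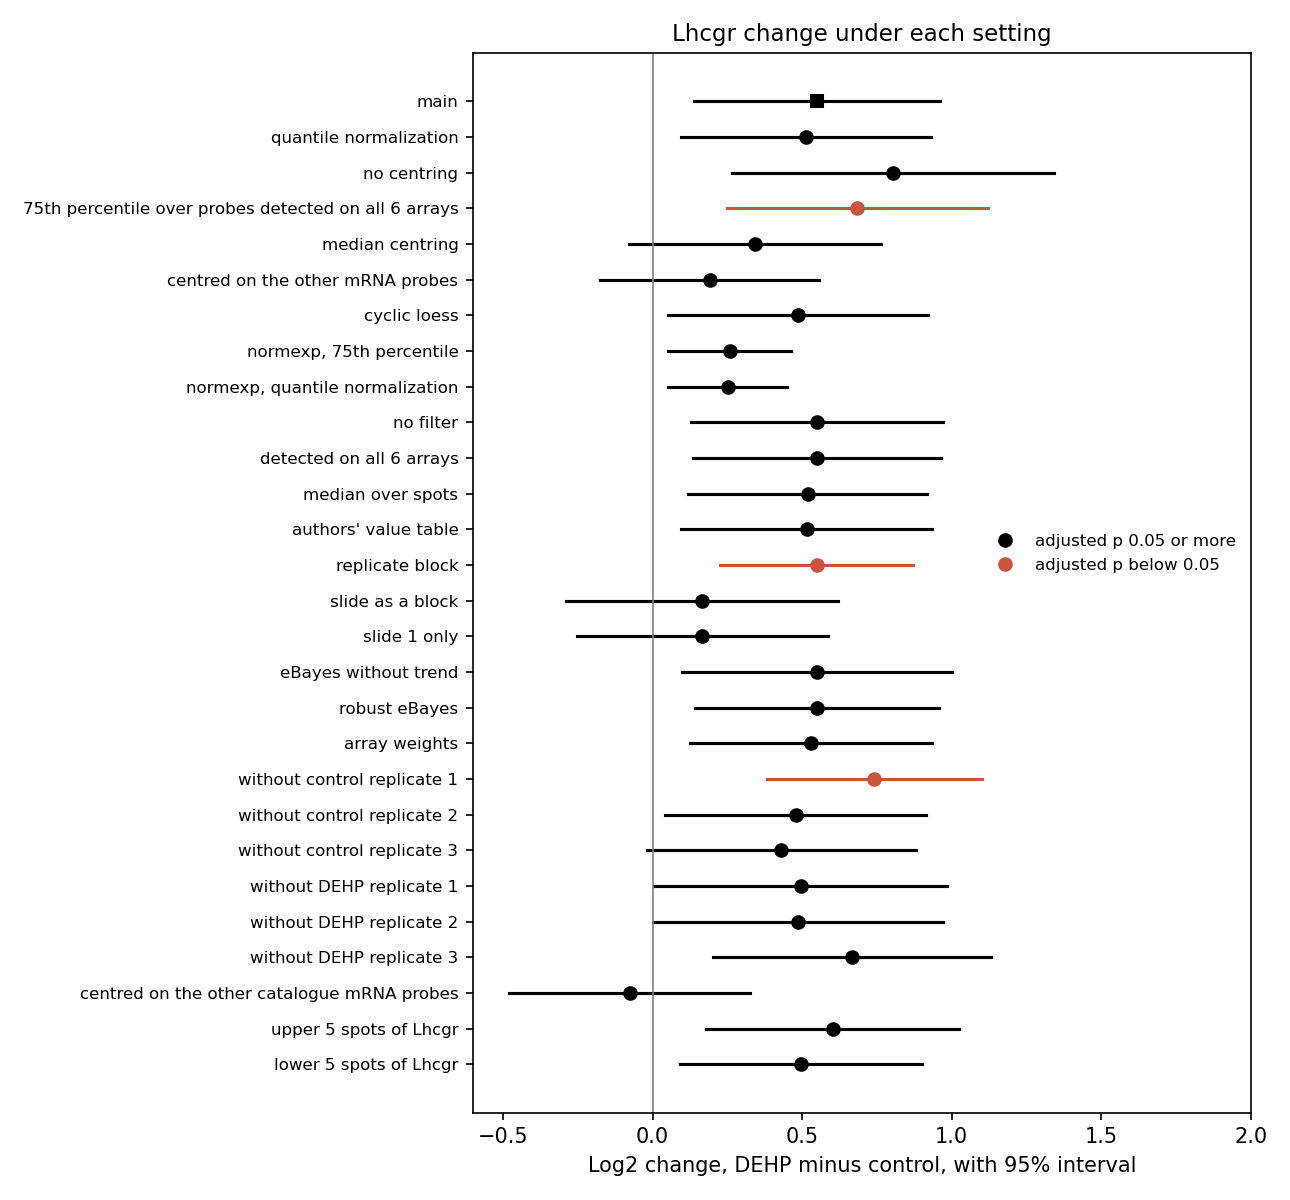
Lhcgr change on the log2 scale, DEHP minus control, with limma's 95% interval under the setting reported (square) and 27 alternatives (circles), in red where the adjusted p was below 0.05. The values run from -0.08, when arrays were centred on the other catalogue mRNA probes, to 0.80 without centring, and 3 alternatives are in red.

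Likeness to Lhcgr was measured by Pearson's r over the 6 arrays on centred log2 levels, as a description. The 6 points share libraries, slides and centring with those of every other probe. Among 53 tested probes of other named genes the median r was 0.86, and 15 had an r over 0.9. Among 22988 piRNA probes the median was 0.10, and 3.25% had an r over 0.9.
The gene probe most like Lhcgr was that of Enpp1, an ectoenzyme that makes pyrophosphate (r = 0.973). Its centred levels were -0.35, -0.84 and -0.97 on controls 1, 2 and 3 and 0.34, 0.37 and -0.06 on the DEHP arrays, a change of 0.94 that passed (limma, adjusted p = 0.0194). Next came a custom probe of Sdha, a subunit of succinate dehydrogenase (r = 0.962, change 0.91, adjusted p = 0.0414). This dim probe was not detected on all 6 arrays, and its centred levels on controls 1, 2 and 3 were -2.13, -2.55 and -2.68. With normexp and percentile centring its change was 0.10 and did not pass (limma, adjusted p = 0.418). The other 2 tested probes of Sdha had changes of -0.35 and -0.34, so its probes disagree. A probe of the chaperone Hsp90ab1 and a probe of the glycolytic enzyme Gapdh both had an r of 0.957, and their changes of 0.44 and 0.27 did not pass. Other tested probes of Hsp90ab1 had smaller changes, 0.03 and 0.23, that did not pass either. The other 2 tested probes of Gapdh rose by 0.65 and 0.62 and passed (limma, adjusted p = 0.0264 and 0.0341). All tested probes of Gapdh thus had a change above 0, unlike those of Sdha. Pdcd10, a gene of vessel integrity, had an r of 0.95 and rose by 0.98.
The least like Lhcgr were 2 custom probes of the lysosomal enzyme Gusb (r = -0.931 and -0.874) and 1 of the glycolytic enzyme Pgk1 (r = -0.897). The latter of the Gusb probes fell by 0.65 (limma, adjusted p = 0.0253), and the other 2 had changes of -0.26 and -0.46 that did not pass. The other 2 tested probes of Pgk1 had changes of 0.32 and -0.21 that did not pass either. With the slide as a block, none of the 4 calls, those of Enpp1, Sdha, Pdcd10 and Gusb, passed (limma, adjusted p = 0.221, 0.332, 0.195 and 0.231). Of all probes tested, 0.0303% passed in that fit, so the loss is not particular to these probes. Of piRNA probes, DQ758985, DQ729464 and DQ749900 were most like Lhcgr, with r of 0.991 to 0.993, and DQ736876, DQ756540 and DQ736704 least, with r of -0.998 to -0.997. DQ729464, the Gusb probe of r = -0.931 and the Pgk1 probe of r = -0.897 were also not detected on all 6 arrays.

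**Figure D5:**
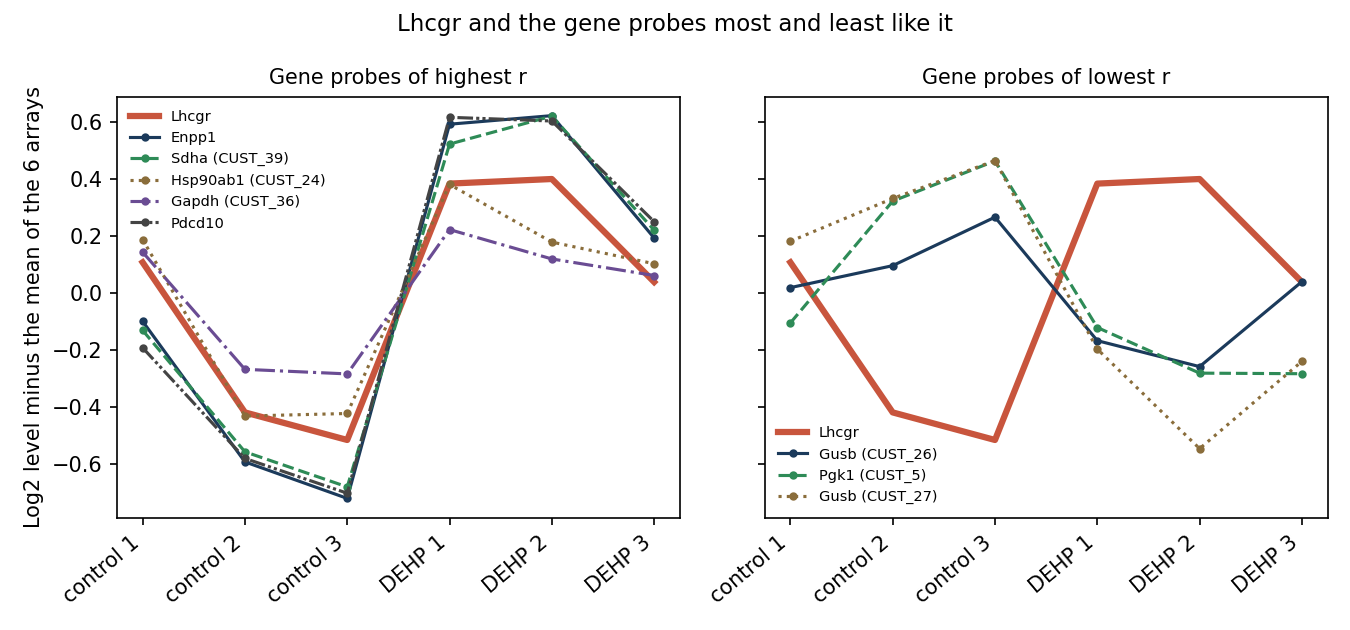
Centred log2 level on each array, minus the probe's mean over the 6 arrays, for Lhcgr (thick red line) and for the 5 gene probes of highest (left) and the 3 of lowest r with it (right), with lines only to join the points of a probe. Controls 2 and 3 are lowest for Lhcgr and for all 5 probes on the left, which were picked for their likeness over these same arrays.

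No other gene of luteinizing hormone signalling, steroid synthesis or Leydig cell identity could be set beside the receptor. Of 76 genes in the lists of luteinizing hormone signalling, cholesterol supply and steroid synthesis, Leydig cell regulators, peroxisome proliferator response and testis cell type markers, 1 had an assigned probe, Lhcgr itself. The labelled tissue therefore has no further defining marker among the assigned probes, and the levels of Sertoli, peritubular, germ, macrophage and endothelial markers were not analysed here. In RNA of whole testis, more Leydig cells, more receptor RNA in each and less RNA from other cells cannot be told apart.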

How the data were processed

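Total RNA of 6 testes was labelled as Cy3 cRNA and hybridised to Agilent arrays, per the labels' protocols. The authors read spots with the program Agilent Feature Extraction (11.0.1.1, per the file headers). Its deposited files give background-subtracted intensity and flags (other values, 0 or 1) per spot. The authors' value table holds a deposited log2 value per probe and array, made by a method not given in the sources used here. Log2 intensities were averaged over spots that were not outliers and centred on the 75th percentile of all probes apart from controls. Probes with at least 50% of their spots well above background on at least 3 arrays and a value on all 6 were kept. Groups were compared with limma 3.58.1 (R 4.3.3, eBayes with trend, Benjamini-Hochberg over 23090 probes), two-sided, at 0.05. The method was tested on simulated data that held no slide or brightness difference, so that test does not bear on the slides here. Gene symbols came from GRCr8 accessions (61 of 67 mRNA probes, 38 genes). Normexp was run on median spot signals. Precision is limited by the number of arrays, and the labels name separate rats.

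Named were Lhcgr, the 5 gene probes of highest and the 3 of lowest r with it, 3 piRNA probes at each end, and list genes with a probe. The gene, the lists and the tests were chosen with earlier results of these data known. Same-numbered arrays had correlations of deviations from group means of 0.13, 0.458 and 0.076, and arrays of different numbers had -0.427 to 0.29. These values do not decide whether the numbers pair rats. The setting reported did not pair them, and the block by replicate number is given as an alternative.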

Additional observations from a re-analysis of the deposited data

How the results depend on the processing

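The change of the Lhcgr probe was above 0 under 26 of 27 alternatives and past the threshold under 3, with adjusted p from 0.0297 to 0.753 (limma). Not all of these are separate estimates. Alternatives that change only the filter, the eBayes setting or the block by replicate number keep 0.55 by construction. The slide as a block and slide 1 alone share 1 estimate, 0.17. The Lhcgr probe passed at 0.68 with the percentile over probes detected on all 6 arrays and at 0.55 with the replicate number as a block (adjusted p = 0.031). Leaving out each array in turn gave 0.43 to 0.74, and it passed without control 1. The value was -0.076 when arrays were centred on the other catalogue mRNA probes. The uncentred ratio was 1.55 to 1.90 with each array left out in turn. Its exact test cannot go under 0.1 with 3 against 3 arrays, the replicate block gave an exact p of 0.25, and limma on uncentred values did not pass (adjusted p = 0.0874).

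The number of probes past the threshold, 2471, was 568 without centring, 6486 centred on the other mRNA probes, 12415 centred on the catalogue ones, 1598 with normexp and percentile centring, 4465 with the replicate block, 7 with the slide as a block, 4000 with array weights, and 275 to 4514 with each array left out. The largest of these was without control 2 and the smallest without DEHP 2. The cause was not tested.

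Of the probes named for likeness, some changed sign. Centred on the catalogue mRNA probes, DQ729464 had -0.15, DQ749900 -0.29, DQ758985 -0.050, Gapdh -0.35 and Hsp90ab1 -0.18, and 1 Gusb probe an r of 0.0031. Centred on all other mRNA probes, DQ749900 had -0.028 and Gapdh -0.088. Gapdh had -0.0090 with the slide as a block and on slide 1 alone. Among these probes r fell under other scalings, to 0.335 for Enpp1, 0.110 for Pdcd10 and 0.286 for Sdha centred on the catalogue mRNA probes, and to -0.178 for DQ736876 without centring. The calls of Enpp1, Pdcd10, Gusb and Sdha were lost under 6 of 27, 6 of 27, 7 of 27 and 15 of 26 alternatives. Alternatives that use only 5 spots of Lhcgr leave the values of these probes as they were, so they could lose no call. All 4 calls were lost with the slide as a block. That of Sdha was lost also after quantile normalization, with median centring and in the authors' deposited table.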
